A study of Mus musculus with 20 samples.

Results

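Part of the complement system was described here through 9 mouse genes, namely C1qa, C1qb, C1qc, C1ra, C1s1, C3, C4b, Cfb and Serping1, whose RNA was sequenced in 20 CT26 tumours. CT26 is a BALB/c mouse colon carcinoma line that forms tumours in mice of the same strain. The genes were taken by symbol from the GENCODE vM21 annotation of the mm10 genome, and all 9 were found among the 55335 genes of the deposited files and passed the filter on low values (at least 1 FPKM in at least 5 libraries, met by 13982 genes). FPKM counts sequenced fragments, divided by the length of the transcript and the size of the library. The tumours formed 4 groups of 5, named after the cells injected and the treatment of the host: POLE-mutant cells with anti-PD-1, POLE-mutant cells with PBS, vector cells with anti-PD-1, and vector cells with PBS. POLE encodes the catalytic part of a replicative DNA polymerase (epsilon), the vector cells are the control, and anti-PD-1 is an antibody that blocks an inhibitory receptor of T cells. The series title names CHEK2 instead of POLE, and the labels give neither the amino acid change, the promoter of the construct, the number of clones, the strain and age of the hosts nor the dosing, so an effect of the mutation and any other difference of the 2 cell populations cannot be told apart.

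Complement is a cascade of plasma proteins that marks cells and debris for removal. In its classical pathway C1q, assembled from the A, B and C chains encoded by C1qa, C1qb and C1qc, recognises antibody or altered surfaces and activates the attached proteases C1r and C1s. C1s cleaves C4 and C2 to form the enzyme that cleaves C3, the protein at which all complement pathways meet. Factor B, encoded by Cfb, supplies the protease of the alternative pathway, and Serping1 encodes the C1 inhibitor, which blocks C1r and C1s. Outside the liver, C1q chains are made mainly by macrophages, Cfb, C4b and Serping1 are known to be induced by interferon, and C1r, C1s and C3 are made by fibroblasts among other cells. These 3 classes (macrophage, interferon-responsive and stromal) order the description, and they overlap, since interferon also acts on several of the stromal class.

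The C1q chains lie side by side on the minus strand of chromosome 4 of mm10, with C1qb (ENSMUSG00000036905) at chr4:136880129-136886187, C1qc (ENSMUSG00000036896) at chr4:136889804-136893065 and C1qa (ENSMUSG00000036887) at chr4:136895917-136898803. Cfb (ENSMUSG00000090231) lies at chr17:34856374-34862518, C4b (ENSMUSG00000073418) at chr17:34728380-34743882 and C3 (ENSMUSG00000024164) at chr17:57203970-57228136, all on the minus strand. Serping1 (ENSMUSG00000023224) lies at chr2:84765387-84775444 on the minus strand. C1ra (ENSMUSG00000055172) and C1s1 (ENSMUSG00000038521) are neighbours, at chr6:124512405-124523443 on the plus strand and chr6:124530345-124542359 on the minus strand. C1ra, C4b and C1s1 have close copies beside them, so that reads could have been split. Of the windows of 50 bases in its transcripts, C1ra shared 48.0% with C1rb, C4b shared 34.6% with C4a and C1s1 shared 21.8% with C1s2, and the values of these 3 genes are uncertain, by an amount that was not measured. The copies were low beside them, with median ratios of 0.132 for C1rb to C1ra, 0.0658 for C4a to C4b and 0.0762 for C1s2 to C1s1. The C1q chains shared 0 windows with each other.

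Promoter sequences from RefSeq (GRCm38.p6, the assembly of mm10) were matched for C1qb, C1qc, C1ra, C1s1 and C3. C1qa, Cfb, Serping1 and C4b were not matched. The 250 bases before the RefSeq start are shown for 1 C1q chain and for 2 genes of the stromal class, to set a macrophage promoter beside stromal ones, and capitals mark a match to a searched motif. For C1qc and C1ra the RefSeq start lies inside the gene as given above, so that 151 and 216 of those 250 bases belong to the annotated gene, and their stretches are not shown. The stretches shown are chr4:136886201-136886450, chr6:124542360-124542609 and chr17:57228137-57228386, all on the minus strand and outside the annotated genes.
C1qb: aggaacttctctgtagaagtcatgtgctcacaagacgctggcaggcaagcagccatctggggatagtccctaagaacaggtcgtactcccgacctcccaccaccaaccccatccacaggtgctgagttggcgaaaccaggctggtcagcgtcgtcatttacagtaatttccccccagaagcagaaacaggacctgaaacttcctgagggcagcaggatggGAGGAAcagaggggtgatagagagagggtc
C1s1: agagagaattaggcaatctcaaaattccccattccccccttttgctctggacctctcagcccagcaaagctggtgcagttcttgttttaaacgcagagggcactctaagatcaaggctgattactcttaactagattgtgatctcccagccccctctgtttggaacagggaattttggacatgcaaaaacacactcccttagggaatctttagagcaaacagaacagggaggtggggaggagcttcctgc
C3: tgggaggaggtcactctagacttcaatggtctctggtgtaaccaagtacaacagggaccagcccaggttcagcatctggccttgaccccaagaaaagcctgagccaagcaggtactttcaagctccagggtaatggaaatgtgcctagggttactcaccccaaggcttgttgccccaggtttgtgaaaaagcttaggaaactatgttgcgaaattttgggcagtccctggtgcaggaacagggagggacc
The motifs were searched on both strands in all 5 matched promoters, over the 250 bases before and the 50 after the RefSeq start. They were GAGGAA (the core bound by PU.1, a macrophage transcription factor), TTCNNNGAA (the gamma-activated site), the interferon-stimulated response element core (GAAA, any 2 bases, GAAA) and the NF-kappaB motif (GGGA, any base, TT, any base, CC). GAGGAA was found in C1qb, beginning 30 bases before the start, and its reverse complement TTCCTC in C1qc, beginning 193 bases before the start. C1ra held TTCCCTGAA, a gamma-activated site match, beginning 32 bases after the start, and TTCCTC beginning 44 bases after it, and these 2 matches do not overlap each other. C1s1 and C3 held none of the 4 motifs in this window. Of 32851 promoters of the same length, 28.3% held the PU.1 core, 8.30% the gamma-activated site, 3.44% the interferon element and 1.199% the NF-kappaB motif. A match is a run of letters and was not tested for binding.

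Depth is not given with FPKM values. If the files were not rescaled, the smallest step between low values (0.0484 to 0.0825 FPKM for 1 fragment per kilobase) puts the members at between 149 fragments (Cfb in its lowest library) and 29729 (C3 in its highest). Counting error was not measured, and it need not be small beside a narrow spread, such as that of C1ra in vector PBS tumours (15.1 ± 0.745 FPKM, SD, n = 5). Pole itself was measured at 1.305, 3.40, 4.75, 4.52 and 5.71 FPKM in mutant anti-PD-1 tumours, 4.14 to 6.35 FPKM in mutant PBS tumours, 4.05 to 10.02 FPKM in vector anti-PD-1 tumours and 6.45 to 10.4 FPKM in vector PBS tumours. Under anti-PD-1 mutant tumours had less of it than vector tumours (log2 fold change -0.93, limma adjusted p = 0.000963), and under PBS the difference did not pass (-0.62, limma adjusted p = 0.120), and its level does not report the mutation. Vector anti-PD-1 replicate 1 and mutant anti-PD-1 replicates 1 and 2 stood apart, with a mean Spearman correlation to the other libraries of 0.776, 0.748 and 0.835 against 0.899 to 0.930 for the other 17. Of the liver and skin markers only Hp (0.781 to 164 FPKM) and Krt10 (0.873 to 3.14 FPKM) passed the filter, and the defining ones were at or near 0, with Alb and Krt5 each at 0 in 17 of 20 libraries. Skeletal muscle markers were not, and varied within groups (summed level 98.5 to 1691 FPKM in mutant anti-PD-1 tumours, 1.45 to 1144 in mutant PBS, 2.71 to 564 in vector anti-PD-1 and 2.90 to 14.2 in vector PBS). Adipocyte markers had median summed levels of 16.5, 16.2, 16.1 and 12.2 FPKM in the same order of groups. The highest tumour reached 235 FPKM in mutant anti-PD-1, 52.1 in mutant PBS, 21.1 in vector anti-PD-1 and 20.9 in vector PBS. The part of adipocyte markers in the results was not tested. The titles carry 2 styles of animal identifier, M followed by digits in 11 libraries and digits without a letter in 9, whose meaning the labels do not give. It entered the fit as a term, and replicate numbers only name a tumour.

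In mutant tumours all 9 genes were higher under anti-PD-1 than under PBS, by 3.95 to 10.2 times on the log2(FPKM + 1) scale. For C1qa the values were 1418, 1215, 583, 597 and 764 FPKM in mutant anti-PD-1 tumours, against 130.4, 261, 389.9, 222 and 215 FPKM in mutant PBS tumours. In the vector tumours C1qa stood at 432, 152, 226, 426 and 314 FPKM with anti-PD-1, against 299, 189, 281, 212 and 168 FPKM with PBS. Every mutant anti-PD-1 tumour lay above all 15 others, the first 2 (replicates 1 and 2) highest, and the other 3 groups overlapped. The means were 915 ± 380 and 244 ± 94.7 FPKM in mutant anti-PD-1 and mutant PBS tumours, and 310.0 ± 123 and 229.9 ± 57.3 FPKM in vector anti-PD-1 and vector PBS tumours (SD, n = 5 each). The log2 fold change of anti-PD-1 over PBS in mutant tumours was 1.98 (SE 0.307, limma adjusted p = 0.000133). In bulk tumours, more cells of a type and more RNA per cell cannot be told apart.

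The other 2 chains of C1q followed C1qa closely. C1qb had 1187, 945, 475, 467 and 549 FPKM in mutant anti-PD-1 tumours and 90.0, 177, 301, 158 and 142 FPKM in mutant PBS tumours. C1qc had 738, 609, 286, 288 and 349.7 FPKM in mutant anti-PD-1 tumours and 64.5, 122, 188, 109 and 105 FPKM in mutant PBS tumours. In both, the 2 groups did not overlap, and mutant PBS replicate 3 was the highest and replicate 1 the lowest of its group. The log2 fold changes were 2.14 for C1qb (SE 0.316, limma adjusted p = 8.66e-05) and 1.99 for C1qc (SE 0.301, limma adjusted p = 0.000106). In vector tumours C1qb spanned 101 to 296 FPKM with anti-PD-1 and 108 to 200.4 FPKM with PBS, and C1qc spanned 73.6 to 205 and 79.1 to 157 FPKM, so that both overlapped between treatments.

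**Figure D1:**
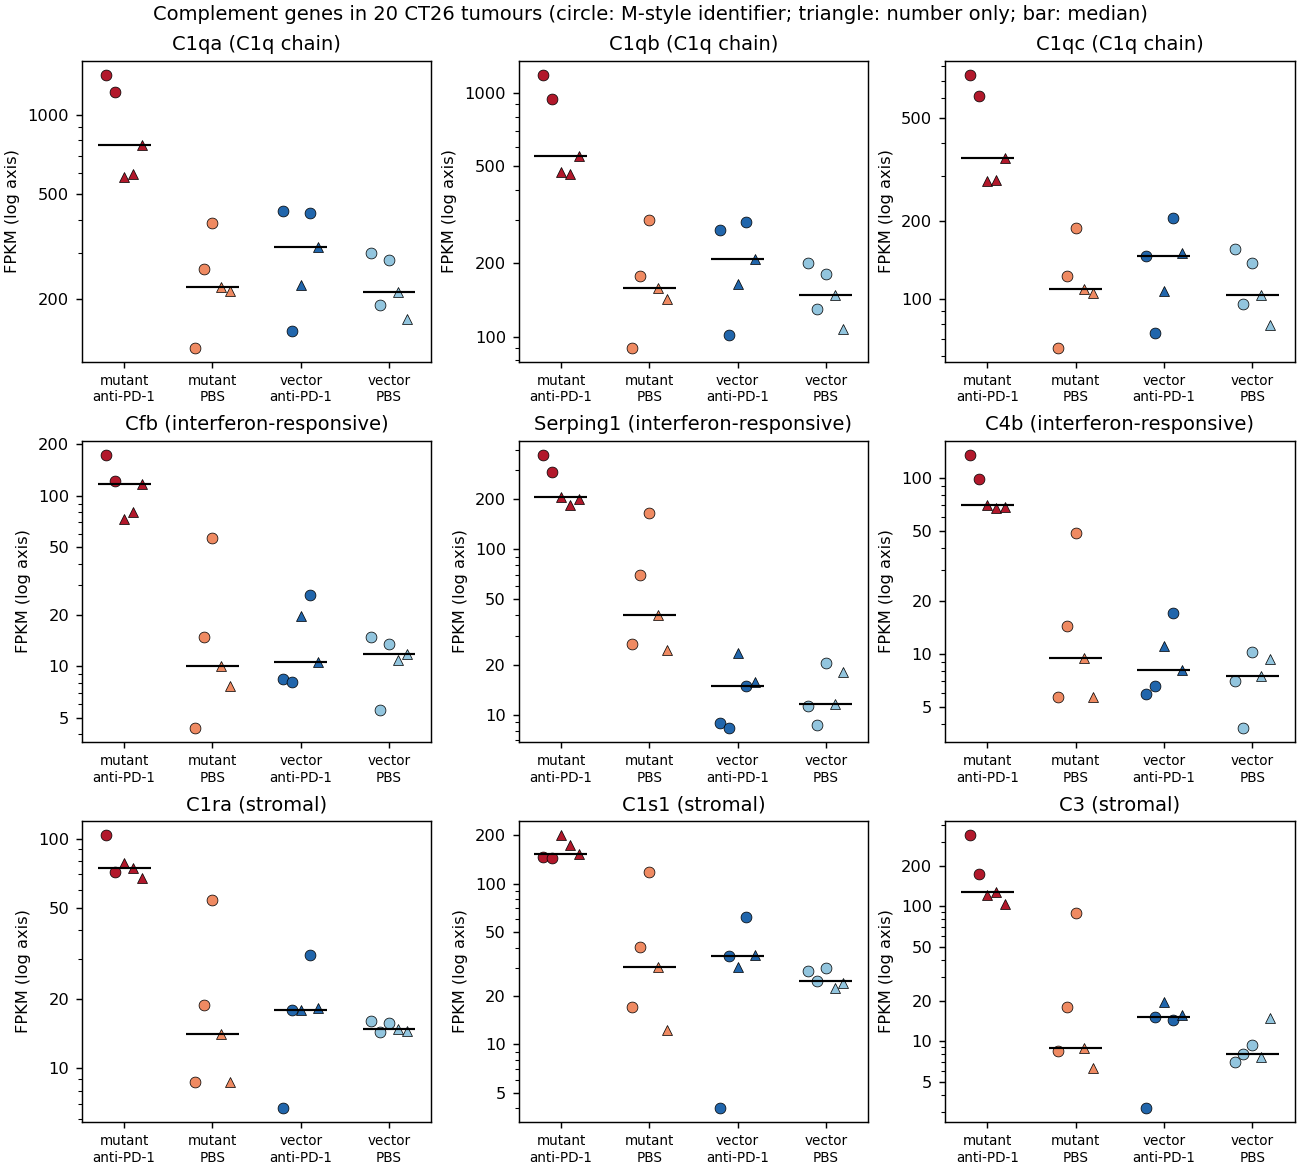
FPKM (log axis) of the 9 complement genes in each of the 20 tumours, by group. Each point is a tumour (circles for M-style identifiers, triangles for number-only ones) and bars are medians. For all 9 genes the mutant anti-PD-1 tumours lie above the mutant PBS tumours, and Serping1 alone also separates mutant PBS tumours (24.5 to 165 FPKM) from vector PBS tumours (8.65 to 20.5 FPKM).

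Of the interferon-responsive class, Cfb and C4b had low levels in most tumours other than the mutant anti-PD-1 ones. Cfb was at 174, 123, 72.8, 80.0 and 117 FPKM in mutant anti-PD-1 tumours, against 4.36, 15.0, 56.5, 10.1 and 7.73 FPKM in mutant PBS tumours. C4b was at 136, 99.4, 70.5, 67.96 and 68.7 FPKM in mutant anti-PD-1 tumours, against 5.72, 14.4, 48.8, 9.50 and 5.68 FPKM in mutant PBS tumours. The highest mutant PBS tumour was replicate 3 for both, and even it lay below every mutant anti-PD-1 tumour. In vector tumours Cfb ran from 8.14 to 26.1 FPKM with anti-PD-1 and from 5.59 to 14.8 FPKM with PBS, and C4b from 5.91 to 17.2 and from 3.799 to 10.3 FPKM. The log2 fold change in mutant tumours was 3.05 for Cfb (SE 0.485, limma adjusted p = 0.000164) and 2.80 for C4b (SE 0.433, limma adjusted p = 0.00013).

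Serping1 was the only member for which all mutant PBS tumours lay above all vector PBS tumours. It was at 372, 294, 206, 184 and 201 FPKM in mutant anti-PD-1 tumours, against 26.7, 69.7, 165, 39.9 and 24.5 FPKM in mutant PBS tumours. In vector tumours it was at 8.90, 8.29, 23.7, 14.9 and 15.8 FPKM with anti-PD-1, against 11.3, 8.65, 20.5, 11.6 and 18.1 FPKM with PBS. All 10 mutant tumours lay above all 10 vector tumours, and within mutant tumours the 2 treatments did not overlap. The share of all genes that separated 10 against 10 tumours was not counted. For 5 mutant above 5 vector tumours it was 3.3% under PBS and 12.1% under anti-PD-1. For anti-PD-1 above PBS in mutant tumours it was 11.1%. The log2 fold change of anti-PD-1 over PBS was 2.30 in mutant tumours (SE 0.425, limma adjusted p = 0.00061).

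The stromal class also rose in mutant tumours. C1ra, whose product is the first protease of the C1 complex to be activated, was at 104, 71.7, 78.4, 74.4 and 67.6 FPKM in mutant anti-PD-1 tumours, against 8.74, 18.8, 54.2, 14.2 and 8.74 FPKM in mutant PBS tumours. C1s1, encoding the protease that cleaves C4, was at 146, 144, 201, 175 and 153 FPKM in mutant anti-PD-1 tumours, against 17.2, 40.6, 117, 30.5 and 12.3 FPKM in mutant PBS tumours. C3 was at 338, 175, 122, 128 and 105 FPKM in mutant anti-PD-1 tumours, against 8.41, 18.1, 88.8, 8.90 and 6.32 FPKM in mutant PBS tumours. No group of mutant tumours overlapped with the other for these 3 genes, and mutant PBS replicate 3 was again the highest of its group. The log2 fold changes were 2.24 for C1ra (SE 0.386, limma adjusted p = 0.000334), 2.34 for C1s1 (SE 0.564, limma adjusted p = 0.0046) and 3.35 for C3 (SE 0.560, limma adjusted p = 0.000258).

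Read against all genes, 15.9% of the 13982 genes tested were called higher in this comparison and 9 of 9 members were. All 5 mutant anti-PD-1 values lay above all 5 mutant PBS values for 9 of 9 members, against 11.1% of all genes. The median log2 fold change was 2.30 over the members and -0.10 over all genes. C3, Cfb and C4b had the larger estimates (3.35, 3.05 and 2.80) and C1qa the smallest (1.98), but the differences between genes were not tested. Within M-style libraries alone the 9 log2 fold changes ran from 1.71 to 3.27 and 7 passed, with C1ra (1.99, limma adjusted p = 0.0635) and C1s1 (1.71, limma adjusted p = 0.234) not passing. Within number-only libraries they ran from 1.51 to 3.802 and 9 passed. Without mutant anti-PD-1 replicates 1 and 2 and vector anti-PD-1 replicate 1, all 9 still passed, at 1.57 to 3.07.

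In vector tumours none of the 9 genes passed the test for anti-PD-1 against PBS. The background was 0% called of all genes by limma, with 426 genes at an unadjusted p under 0.05. C1qa (0.36, 95% confidence interval -0.28 to 0.999), C1qb (0.38, -0.28 to 1.04) and C1qc (0.21, -0.41 to 0.84) had small positive log2 estimates, as did C3 (0.35, -0.81 to 1.52), C4b (0.29, -0.61 to 1.19), Cfb (0.26, -0.75 to 1.27) and C1ra (0.13, -0.67 to 0.93). C1s1 stood at -0.01 (-1.19 to 1.16) and Serping1 at -0.005 (-0.89 to 0.88). The limma adjusted p ran from 0.724 to 0.996. The intervals reach 0.84 to 1.52 at their upper ends, and rises up to that size are not excluded. For 0 of 9 genes did the 2 groups separate, against 0.279% of all genes with anti-PD-1 above PBS. Within M-style libraries the 9 values ran from -0.34 to 0.37 and within number-only libraries from 0.17 to 0.64, with 0 passing in either.

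Vector anti-PD-1 tumours were spread more widely in the proteases than vector PBS tumours. C1s1 was at 4.02, 35.6, 30.3, 61.9 and 35.9 FPKM in vector anti-PD-1 tumours, against 28.4, 25.0, 29.9, 22.6 and 24.2 FPKM in vector PBS tumours. C1ra was at 6.71, 17.9, 17.9, 31.3 and 18.4 FPKM in vector anti-PD-1 tumours, against 16.2, 14.4, 15.7, 14.9 and 14.6 FPKM in vector PBS tumours. C3 was at 3.20, 15.2, 19.5, 14.3 and 15.6 FPKM in vector anti-PD-1 tumours, against 7.001, 8.01, 9.45, 7.71 and 14.9 FPKM in vector PBS tumours. Replicate 1, the vector library that stood apart, was the lowest for all 3 genes, while its C1qa (432 FPKM) was the highest of the 10 vector tumours. The other C1q chains did not share this rank. Its C1qb (275 FPKM) was below replicate 4 (296 FPKM), and its C1qc (147 FPKM) below replicates 4 and 5 (205 and 150 FPKM). Its Csf1r, a macrophage gene, was at 14.5 FPKM, the lowest of its group. Of the 20 libraries it had the highest total (566913 FPKM) and the lowest mitochondrial share (2.85%). Replicate 4 was the highest for both proteases.

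**Figure D2:**
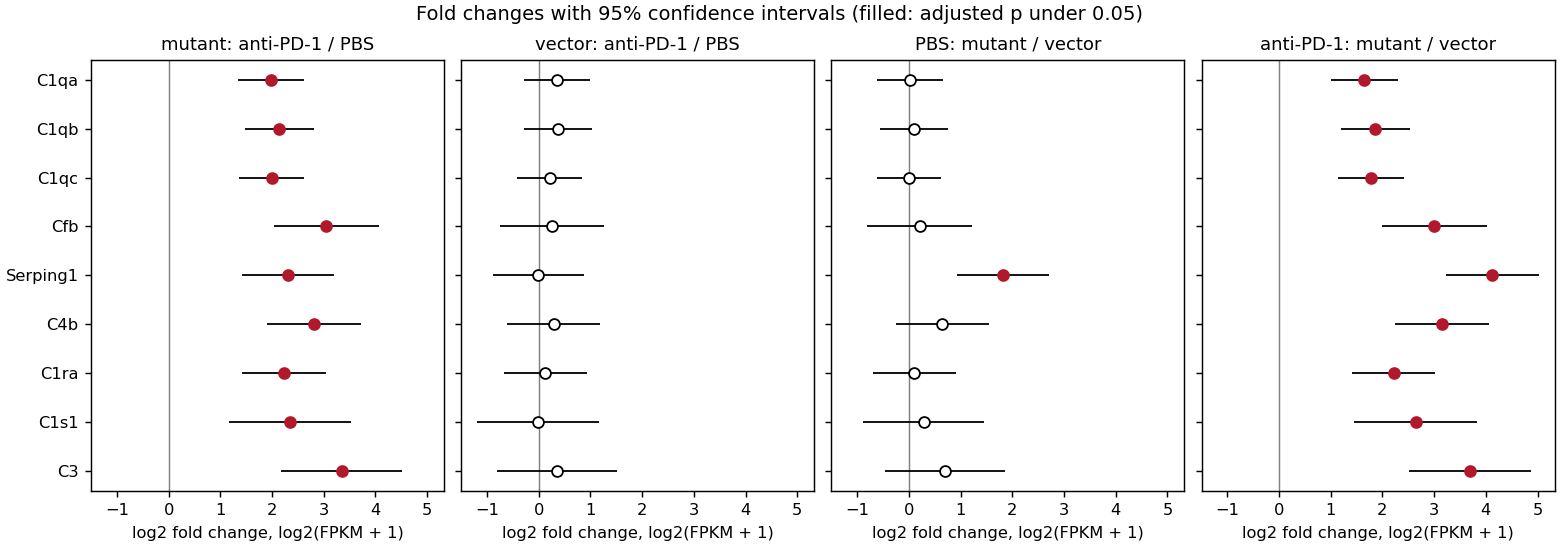
Log2 fold changes of the 9 genes on the log2(FPKM + 1) scale in 4 comparisons, with limma's 95% confidence intervals. Filled points passed the adjusted threshold of 0.05. All 9 passed in mutant tumours under anti-PD-1, none in vector tumours, and Serping1 (1.82) alone between mutant and vector tumours under PBS.

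Under PBS, mutant and vector tumours differed in 1 of the 9 genes. Serping1 averaged 65.1 ± 58.5 FPKM in mutant PBS tumours and 14.0 ± 5.02 FPKM in vector PBS tumours (SD, n = 5 each). Its log2 fold change was 1.82 (SE 0.420, limma adjusted p = 0.0346), and the lowest mutant tumour (24.5 FPKM) lay above the highest vector tumour (20.5 FPKM). By the same rule 0.529% of all genes were called higher in mutant tumours, and 3.3% had all 5 mutant values above all 5 vector values. The other 8 had estimates between 0.003 (C1qc) and 0.70 (C3, 95% confidence interval -0.47 to 1.86) with limma adjusted p of 0.686 or more. The 3 C1q estimates were 0.03 for C1qa (-0.61 to 0.67), 0.10 for C1qb (-0.56 to 0.76) and 0.003 for C1qc (-0.62 to 0.63).

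The Serping1 call under PBS was near the threshold. It was lost when any 1 of vector PBS replicates 1, 2, 3 or 4 or mutant PBS replicates 2, 3 or 4 was left out, with a log2 fold change of 1.396 to 1.95 and a limma adjusted p of 0.0535 to 0.106 in those 7 fits. It was 2.33 within M-style libraries (limma adjusted p = 0.243) and 1.06 within number-only libraries (limma adjusted p = 0.127). With the mean level of the skeletal muscle markers as a covariate it was 1.41 (limma adjusted p = 0.061).

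Under anti-PD-1, all 9 genes were higher in mutant than in vector tumours, where 17.8% of all genes were called higher. Serping1 had the highest log2 fold change, 4.13 (SE 0.425, limma adjusted p = 4.4e-06), on means of 252 ± 80.0 FPKM in mutant and 14.3 ± 6.23 FPKM in vector anti-PD-1 tumours (SD, n = 5 each). C3 (3.69), C4b (3.16), Cfb (3.001), C1s1 (2.64) and C1ra (2.21) followed, and the C1q chains were at 1.65 (C1qa), 1.87 (C1qb) and 1.78 (C1qc). All 5 mutant values lay above all 5 vector values for 9 of 9 members, against 12.1% of all genes. Within M-style libraries the values ran from 2.11 to 4.87 and 8 passed, C1s1 missing the threshold (2.69, limma adjusted p = 0.0619), and within number-only libraries they ran from 1.27 to 3.28 and 9 passed.

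The difference between the responses to anti-PD-1, mutant minus vector, was tested as an interaction and passed for 8 of 9 members, against 7.4% of all genes in that direction. It was largest for C3 (2.99, SE 0.789, limma adjusted p = 0.0252) and Cfb (2.79, SE 0.682, limma adjusted p = 0.0174). C4b (2.51), Serping1 (2.31), C1ra (2.11), C1qc (1.78), C1qb (1.76) and C1qa (1.62, limma adjusted p = 0.0264) also passed, and C1s1 (2.36, SE 0.794, limma adjusted p = 0.0666) did not. This comparison and the 4 above share tumours, so their values are given side by side and not as separate evidence. Within M-style libraries the 9 values ran from 1.96 to 3.12 and 1 passed, and within number-only libraries from 1.03 to 3.16 and 7 passed. Without vector anti-PD-1 replicate 1 and mutant anti-PD-1 replicates 1 and 2, the values were 1.35 to 2.42 and 0 passed by limma (adjusted p 0.0654 to 0.127). When mutant PBS replicate 3 was left out as well, they were 1.48 to 2.79 and 9 passed, a setting chosen after the data had been seen. The calls over all 13982 genes moved in the same direction. Those called higher numbered 1035 with all libraries, 302 without the 3 libraries and 1426 without the 4.

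Single tumours also moved calls of this interaction across the threshold, with limma adjusted p between 0.0503 and 0.0620 for each call lost. C1qa no longer passed when vector PBS replicate 1, 3 or 4, or mutant anti-PD-1 replicate 1 or 2, was left out. The same held for C3 without mutant PBS replicate 1, 4 or 5 or mutant anti-PD-1 replicate 1, Serping1 without mutant PBS replicate 5 or mutant anti-PD-1 replicate 1 or 2, and C1ra without mutant PBS replicate 5. The count was 5 of 9 without mutant PBS replicate 5 and 5 of 9 without mutant anti-PD-1 replicate 1. C1s1 passed without vector anti-PD-1 replicate 1 (1.77), vector anti-PD-1 replicate 4 (2.64) or mutant PBS replicate 3 (2.79).

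Ratios of 2 genes within a tumour, chosen after the values had been seen and therefore given with no test, show how the members moved against one another. C1qa to C1qb stood at 1.19 to 1.39 in mutant anti-PD-1 tumours, 1.29 to 1.51 in mutant PBS, 1.38 to 1.57 in vector anti-PD-1 and 1.42 to 1.56 in vector PBS tumours. C1qa to Csf1r, the receptor for macrophage colony-stimulating factor, had medians of 12.3, 11.9, 12.96 and 9.83 in the same order, with one tumour, vector anti-PD-1 replicate 1, at 29.8. Over the same 20 tumours the level of C1qa spanned 130.4 to 1418 FPKM. C1qa to C1s1, a macrophage against a stromal gene, had medians of 5.00, 7.28, 7.46 and 9.39 and ran from 2.90 to 107, the last in vector anti-PD-1 replicate 1. In that tumour C1qa was also high against C1qc, at a ratio of 2.95, against 1.91 to 2.19 in the other tumours.

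Serping1 to C1ra, the inhibitor against a protease it blocks, was 2.48 to 4.10 in mutant anti-PD-1 tumours and 2.80 to 3.70 in mutant PBS tumours. It was 0.464 to 1.33 in vector anti-PD-1 tumours and 0.599 to 1.31 in vector PBS tumours. For this pair the 10 mutant tumours lay above the 10 vector tumours, while within each cell type the treatments overlapped. Serping1 to C1s1, the other protease it blocks, did not separate them. It was 1.03 to 2.55 in mutant anti-PD-1, 1.31 to 1.98 in mutant PBS, 0.233 to 2.21 in vector anti-PD-1 and 0.347 to 0.745 in vector PBS tumours. The value of 2.21 was that of vector anti-PD-1 replicate 1.

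**Figure D3:**
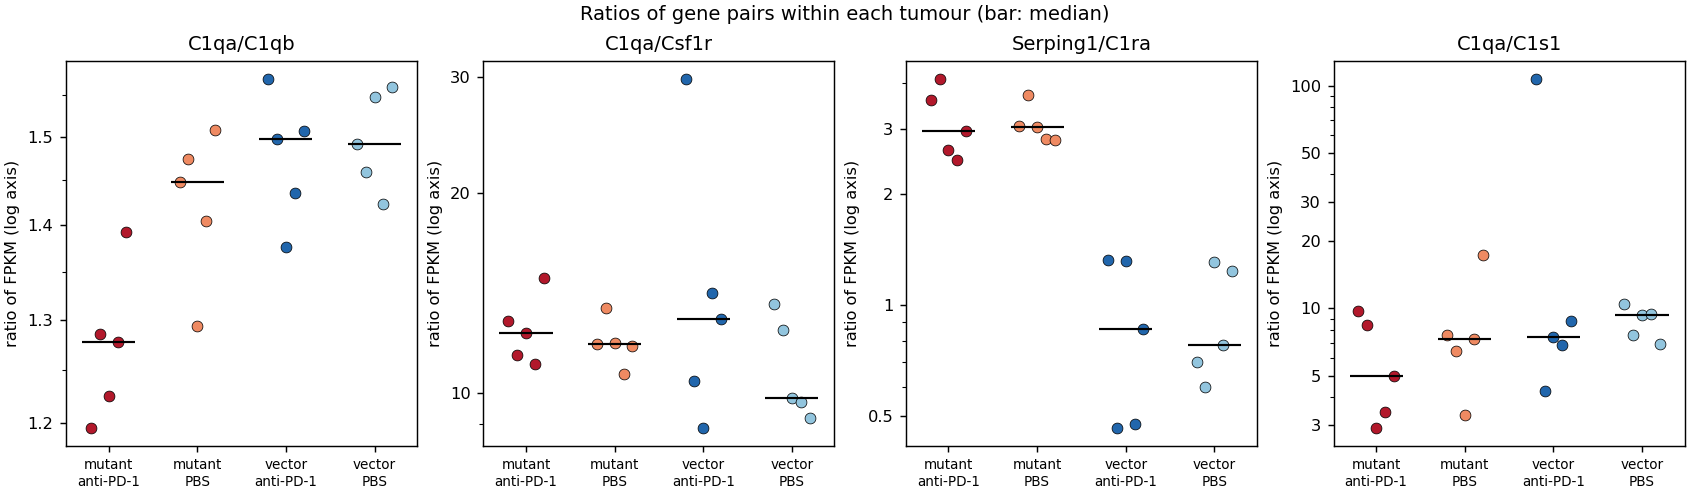
Ratios of FPKM between gene pairs within each of the 20 tumours (log axes), by group, with bars at the medians. Serping1 to C1ra separates mutant (2.48 to 4.10) from vector tumours (0.464 to 1.33) under both treatments, while C1qa to C1qb stays between 1.19 and 1.57.

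Across the 20 libraries, Spearman correlations between members followed the 3 classes only in part, and since the libraries share groups they are given with no test. The C1q chains correlated with each other at 0.982 to 0.991, C1ra with C1s1 at 0.944 and Cfb with C4b at 0.955. Serping1 was lowest, at 0.598 (with C1qa) to 0.795 (with C4b). Pairs across classes could be closer than pairs within one, since Cfb correlated with C1ra at 0.901 and with C1qb at 0.866 but with Serping1 at 0.707, and C4b with C1ra at 0.893 and with C3 at 0.881. The other tested genes were then ranked by likeness, without unnamed genes, predicted genes (Gm or Rik symbols) and immunoglobulin or T-cell receptor segments. Those most like C1qa were Gmfg (0.985), Cyth4 (0.980) and Cd300c2 (0.980). Most like C1qb were BE692007 (0.989), Cd300c2 (0.986) and Cyth4 (0.985), and most like C1qc were BE692007 (0.982), Cd300c2 (0.977) and Clec4a2 (0.971). Cfb was nearest to Dock2 (0.980), Slc28a2 (0.973) and Ubash3b (0.971), C4b to Wdfy4 (0.974), Ctse (0.961) and Dock2 (0.955), and Serping1 to Lamp2 (0.973), Map3k3 (0.947) and Stom (0.946). In the stromal class, C1ra was nearest to Ipcef1 (0.961), Sesn3 (0.958) and Ccr2 (0.950), C1s1 to Tapbp (0.950), C1rl (0.949) and Nrgn (0.947), and C3 to Epm2a (0.956), Psd4 (0.955) and Id2 (0.940).

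The rest of the complement system was read from a list of 46 further genes, of which 22 were tested. In mutant tumours under anti-PD-1 against PBS, 15 of 22 rose and none fell (15.9% and 14.6% of all genes), with a median log2 fold change of 1.17. At the start of the classical and lectin pathways 5 of 7 rose, including C2 (2.28), the protease cleaved by C1s, and the copies C1rb (2.12) and C1s2 (1.91), which share sequence with C1ra and C1s1. Of the alternative pathway 1 of 2 rose, properdin (Cfp, 1.92), which stabilises its C3-cleaving enzyme. C6 (2.498) was the only one of 7 terminal genes that passed the filter and it rose, at 5.54 to 19.96 FPKM in mutant anti-PD-1 tumours against 0.261 to 2.61 FPKM in mutant PBS tumours. C7, C8a, C8b and C9 were at 0 in 14 to 20 of the 20 libraries and never above 0.0991 FPKM.

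Regulators restrain the cascade on the host's own cells, and receptors bind its fragments. Of 5 regulators 4 rose, among them Cd55 (1.86), which dissolves C3-cleaving enzymes on cell surfaces. Cd55 was at 1.49 to 17.0 FPKM in mutant anti-PD-1 tumours and 0.0491 to 1.81 FPKM in mutant PBS tumours, and the groups overlapped. Of 7 receptors 4 rose, including Itgb2 (2.07), the beta chain of complement receptors 3 and 4. In vector tumours 0 of 22 passed the limma test for anti-PD-1 against PBS, as did 0% of all genes, and their median was 0.01.

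Between mutant and vector tumours under PBS, 0 of 22 were higher and 2 were lower (0.923% of all genes were lower), and these were named after their values were seen. Clu, which encodes the fluid-phase inhibitor clusterin, was at 0.798 to 5.15 FPKM in mutant PBS tumours and 7.36 to 13.5 FPKM in vector PBS tumours (log2 fold change -1.98, SE 0.226, limma adjusted p = 0.000121). Masp1, which encodes a protease of the lectin pathway, was at 0.421 to 0.880 and 3.24 to 4.46 FPKM (-1.66, SE 0.176, limma adjusted p = 6.85e-05). Neither pair of groups overlapped (5.74% of all genes had all 5 mutant values below all 5 vector values), so in PBS tumours the inhibitor gene Serping1 was higher in mutant tumours while the inhibitor gene Clu was lower. Under anti-PD-1, mutant tumours had 13 of 22 higher and 3 lower than vector tumours (17.8% and 15.1% of all genes), the lower ones being Clu (-0.96), Masp1 (-1.48) and Fcna (-1.15), a ficolin of the lectin pathway. The interaction passed for 10 of 22, all higher, against 7.4% of all genes higher and 1.95% lower.

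Marker lists for the 3 classes of source rose with the members in mutant tumours under anti-PD-1, but few interferon-gamma and stromal genes passed in the difference of responses. Their part in the results was not tested. In mutant tumours under anti-PD-1 against PBS, where 15.9% of all genes were higher, 11 of 15 macrophage markers rose (summed level 2598 to 6794 FPKM in mutant anti-PD-1 tumours and 798 to 1708 FPKM in mutant PBS tumours), with Csf1r at a log2 fold change of 1.82. Of 18 interferon-gamma response genes 16 rose (789 to 2355 FPKM and 171 to 1258 FPKM). Of 15 stromal genes 12 rose (540 to 3695 FPKM and 236 to 721 FPKM), with Col1a1 at 2.45, and 9 of 9 tested T-cell markers rose (98.4 to 154 FPKM and 1.93 to 47.4 FPKM). Col1a1 rested on replicates 1 and 2 at 600.0 and 390.1 FPKM, the other 3 mutant anti-PD-1 tumours lying at 56.1 to 84.0 FPKM against 7.97 to 74.4 FPKM in mutant PBS tumours, whereas C1ra, C1s1 and C3 were high in all 5.

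Between mutant and vector tumours under PBS, 0 of 15 macrophage and 0 of 15 stromal markers passed, with Csf1r at -0.10 and Col1a1 at -0.62, neither past the threshold. Of the interferon-gamma genes 3 of 18 were higher in mutant tumours, against 0.529% of all genes, and the list's median log2 fold change was 1.34. In vector tumours none of these lists had a member that passed for anti-PD-1 against PBS, where 0% of all genes passed. Csf1r was at 0.01 and Col1a1 at -0.37. The list medians there were 0.01 for macrophage, 0.77 for interferon-gamma and -0.36 for stromal genes. Under anti-PD-1, 11 of 15 macrophage, 17 of 18 interferon-gamma and 10 of 15 stromal genes were higher in mutant than in vector tumours (17.8% of all genes). The difference of responses passed for 10 of 15 (list median 1.71), 1 of 18 (0.93) and 1 of 15 (1.55), against 8 of 9 members and 7.4% of all genes.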

How the data were processed

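Each of the 20 deposited files holds 1 value per gene, taken as FPKM because Cuffnorm is named in the submitters' processing notes (with STAR 2.5 and the mm10 build) and because the values are neither whole nor negative. Annotation, strandedness and the treatment of multiply matching reads were not given in the sources used here. From the deposited FPKM values log2(FPKM + 1) was computed and fitted with limma 3.58.1 in R 4.3.3 (intensity trend, 4 group means, a term for identifier style, 20 libraries). The method was tested on simulated data with independent normal noise, of equal spread per gene in all libraries. Those data held no libraries that stand apart, so the effect of such libraries was not covered. P-values were adjusted by Benjamini-Hochberg over 13982 genes with a threshold of 0.05. A fold change on this scale understates the change of low genes. No read numbers were recovered (26.3% to 36.1% of low values were whole multiples of 1 fragment within 5%), so no count test was run. The design text gives 5 per group, and p-values measure the spread between these tumours. The members, lists and tests were chosen with earlier results of these data known. Named were all members, the 8 other complement genes that changed most among those passing in mutant tumours, 1 marker per class, and the 3 most similar genes per member, except for items that are not reported here. Alternatives covered pseudocount, filter, scaling, trend, weights, covariates and left-out libraries.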

Additional observations from a re-analysis of the deposited data

Results flagged for a closer look

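Mutant PBS replicate 3 lay far above the other 4 tumours of its group for 5 of the 9 genes. It held Cfb at 56.5 FPKM (the others 4.36 to 15.0), C4b at 48.8 (5.68 to 14.4), C1ra at 54.2 (8.74 to 18.8), C1s1 at 117 (12.3 to 40.6) and C3 at 88.8 FPKM (6.32 to 18.1). The gap, taken on FPKM and not on the log2 scale of the fits, exceeded Dixon's 95% critical value for 5 samples in each. Chance passes this limit in about 1 of 20 groups only if values are normally distributed, and 36 groups of 5 were checked. The log2 scale was not checked for such gaps. Members correlated with each other, so these 5 genes are not separate events. The C1q chains and Serping1 did not pass that limit in this tumour. Col1a1 in the same tumour was at 74.4 FPKM (the others 7.97 to 33.1), and its part in the result was not tested.

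The response to anti-PD-1 differed between mutant and vector tumours for 8 genes by the interaction term, mutant minus vector on the log2 scale. The differences were 1.62 for C1qa, 1.76 for C1qb, 1.78 for C1qc, 2.11 for C1ra, 2.99 for C3, 2.51 for C4b, 2.79 for Cfb and 2.31 for Serping1.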

How the results depend on the processing

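In mutant tumours 9 members were called with any library left out (9 to 9), and 7 to 9 over every setting run; in vector tumours 0 were called under any. Under anti-PD-1, mutant against vector gave 9 to 9 with a library left out. For mutant against vector under PBS the count of 1 became 0 without a filter on low values, in M-style or number-only libraries alone, and with the skeletal muscle covariate, and ran from 0 to 1 with a library left out. For the difference of responses the count of 8 became 5 without a filter (more genes tested), 0 without the 3 least correlated libraries and 1 in M-style libraries alone, and ran from 5 to 9 with a library left out. The cause of the other changes was not tested. Over all genes, the difference of responses was called higher for 1035 in the main fit, 302 without those 3 libraries and 934 in M-style libraries alone. Quantile normalization moved the median of all genes from 0.002 to -0.12 between mutant and vector tumours under anti-PD-1, and from 0.01 to -0.11 in the difference of responses, and turned no member's direction in either.

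The estimates that changed sign had not passed any test. In vector tumours, C1s1 and Serping1 became 0.58 and 0.33 with sample weights, 0.12 and 0.060 with quantile normalization, 0.028 and 0.044 with upper quartile scaling, 0.65 and 0.14 without 3 libraries, 0.48 and 0.39 in number-only libraries and 0.62 and 0.11 without 4 libraries. With the muscle covariate C1ra was -0.057, C3 -0.035, C4b -0.069 and Cfb -0.15. With a library left out, C1ra ran from -0.070 to 0.47, C1s1 from -0.32 to 0.63 and Serping1 from -0.25 to 0.18. For mutant against vector under PBS, C1ra was -0.035 with sample weights and C1qc -0.019 with upper quartile scaling. In M-style libraries C1qa was -0.086 and C1qc -0.16, and in number-only libraries C1ra was -0.37, C1s1 -0.25, C3 -0.47, C4b -0.17 and Cfb -0.33. With the muscle covariate C1qa was -0.15, C1qb -0.098, C1qc -0.14, C1ra -0.065 and Cfb -0.16. Without the 4 libraries, which were chosen after seeing the data, C1qa was -0.15, C1qb -0.12, C1qc -0.18, C1ra -0.29, C1s1 -0.14 and Cfb -0.32. With a library left out, C1qa ran from -0.12 to 0.29, C1qb from -0.086 to 0.37, C1qc from -0.15 to 0.25, C1ra from -0.30 to 0.35, C1s1 from -0.19 to 0.62 and Cfb from -0.30 to 0.59.

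No paired analysis was possible because the labels number no replicates, and the numbers used here follow deposition order and only name a tumour. Files without counts limit the precision that depth would give.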
